A study of Mus musculus with 9 samples.

Results

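Strains of mice that carry different missense mutations of the mucin gene *Muc2* were compared directly with each other, *Eeyore* against *Winnie*, by microarray of the large intestine at 8 wk of age. The comparison took all arrays titled *Eeyore* and all titled *Winnie*, which is 6 of the 9 arrays of the series with 3 mice per strain, and the 3 wild-type C57BL/6 arrays served only to show where the normal level lay. *Winnie* mice, on a C57BL/6 background, have a cysteine replaced by tyrosine in the N-terminal D3 domain of Muc2. *Eeyore* mice, whose labelled background mixes C57BL/6 with NOD-SCID, have a serine replaced by proline in the C-terminal D4 domain. The mutations arose in separate founder lines of C57BL/6 mice treated with ethylnitrosourea, RNA was taken from homogenised proximal and distal large intestine, and all mice are labelled male. Strain background therefore differs between the mutants wherever the mutation does, and the part of each in any difference given here cannot be told apart.

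Muc2 is the gel-forming mucin that goblet cells fold in the endoplasmic reticulum (ER), assemble into polymers and secrete as the mucus layer of the colon. Goblet cells also release antimicrobial proteins into this layer, and the epithelium below it responds to bacteria and to cytokines. Type I interferons act on genes with interferon-stimulated response elements in their promoters, whereas interferon-gamma acts through the transactivator Ciita to raise MHC class II and also raises the guanylate-binding GTPases.

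Values are the deposited signal intensities of probe sets, scaled by the authors to a trimmed mean of 500 per array, and are given mouse by mouse in the order of the mouse numbers. The median signal of an array lay between 87.9 and 99.3 in both mutant strains and between 118 and 129 in wild-type mice, and arrays of 1 group correlated with r from 0.948 to 0.967 on the log2 scale over tested probe sets. Defining colon genes were bright in every mouse, with *Car1*, the carbonic anhydrase of colonocytes, at 49485, 56246 and 37532 in *Eeyore* and 55549, 42199 and 48201 in *Winnie* mice. The Y-linked *Eif2s3y* and *Kdm5d* were as bright in *Eeyore* as in *Winnie* mice (means of 1259.7 ± 63.7 and 1291 ± 196, SD, n = 3, for *Eif2s3y*). In wild-type mice *Eif2s3y* was at 23.9, 4.73 and 24.1 and *Xist*, the RNA of the inactive X chromosome, at 7371, 7916 and 8261, against 78.8, 107 and 65.7 in *Eeyore* and 9.13, 61.8 and 44.2 in *Winnie* mice. The wild-type arrays thus go against their male label, and sex differs together with genotype wherever a wild-type level is quoted here, but not between the mutants.

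The mutants differed from each other at a small share of probe sets. Of 22519 probe sets tested, 519 (2.3%) differed at an adjusted p under 0.05, 240 (1.07%) of them higher and 279 (1.24%) lower in *Eeyore* than in *Winnie* mice. At an unadjusted p under 0.05 the number was 3432. With each gene taken at its brightest probe set, 297 of 11453 genes differed (2.59%), 148 higher (1.29%) and 149 lower (1.3%) in *Eeyore* mice. The signals of the strains did not overlap for any of the 519 probe sets, and 275 of them (1.22% of those tested) differed by at least 2-fold. Over all tested probe sets, 4370 (19.4%) did not overlap. The share of calls that were higher in *Eeyore* mice was 46.2% with the deposited scaling and 33.1% of 544 after each array was centred on its median, which moved the median difference from -0.02 to -0.11 on the log2 scale. Without *Eeyore* mouse 1 the number rose to 858, and without *Eeyore* mouse 2 or *Winnie* mouse 3 it was 332 and 297.

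The genes that were higher and those that were lower in *Eeyore* mice lay differently towards the wild-type level, which is given as a description. Of the 149 lower genes, 80 had a wild-type mean above both mutants, 59 between them and 10 below both, and the wild-type mean was nearer to *Winnie* for 117 (78.5%). Among the 148 higher genes the wild-type mean lay above both mutants for 25, between them for 77 and below both for 46, and it was nearer to *Eeyore* for 69 (46.6%). The same shares over all tested genes were not counted. Wild-type arrays had higher medians than the mutant arrays (118 to 129 against 87.9 to 99.3) at the same trimmed mean, and differed in sex by their markers. The part of either in these counts was not tested.

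**Figure D1:**
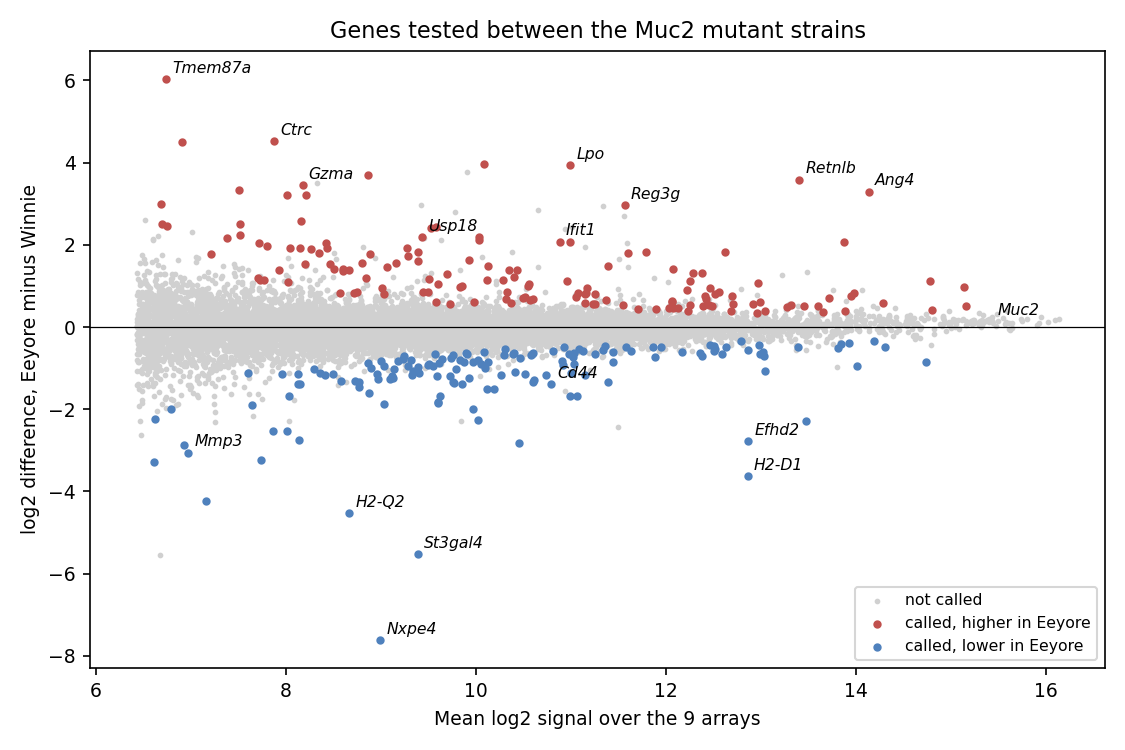
Each point is 1 of the 11453 tested genes at its brightest probe set, with the mean log2 signal over the 9 arrays on the x axis and the log2 difference of *Eeyore* minus *Winnie* on the y axis. Red points are the 148 genes called higher and blue points the 149 called lower in *Eeyore* mice, *Muc2* lies near 0 at the bright end, and the largest differences are *Nxpe4* and *St3gal4* below and *Tmem87a* above.

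The *Muc2* transcript did not differ detectably between the mutants. It gave 36854, 35935 and 32542 in *Eeyore*, 34791, 25759 and 35694 in *Winnie* and 85946, 75006 and 70046 in wild-type mice, so the mutants overlapped each other and lay below wild-type. The log2 difference was 0.14 ± 0.12 (SE), with an adjusted p of 0.622. Around it, 4 of 22 goblet cell products (18.2%) differed, 3 higher and 1 lower in *Eeyore* mice, beside 2.59% of all tested genes. The median log2 difference was 0.33 over the list against -0.01 over all tested genes. Every count of called list members given below stands beside this share of 2.59%.

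*Retnlb*, which encodes the resistin-like protein beta that goblet cells secrete, was 12-fold higher in *Eeyore* mice. Its signals were 42105, 33274 and 21976 in *Eeyore*, 3206, 2395 and 2305 in *Winnie* and 11466, 11034 and 28907 in wild-type mice, a log2 difference of 3.59 ± 0.33 (SE; adjusted p = 7.39e-05). *Winnie* mice thus lay below every wild-type mouse and all *Eeyore* mice lay above 2 of the 3. *Ang4*, an antimicrobial ribonuclease, followed with 48517, 32768 and 29767 in *Eeyore*, 9991, 1463 and 3402 in *Winnie* and 39574, 37588 and 56870.5 in wild-type mice, a difference of 3.30 ± 0.49 (adjusted p = 0.00323), and its other probe set gave 3.64 ± 0.55. Here *Winnie* was the strain that departed from wild-type, with *Winnie* mouse 1 the highest of its strain. *Clca1*, a secreted goblet cell protein, was 1.96-fold higher in *Eeyore* mice (47535, 35929.9 and 32097 against 23612, 14431 and 21332, adjusted p = 0.00881) and lower in both strains than in wild-type (66917, 61328 and 63932). *Klk1*, a tissue kallikrein, went the other way, with 19564, 14725 and 14182 in *Eeyore*, 27796, 27523 and 31087 in *Winnie* and 44945, 42271 and 46569.6 in wild-type mice (log2 difference -0.85 ± 0.11, adjusted p = 0.0014), and 2 of its 4 tested probe sets were called.

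Of 15 antimicrobial genes of the epithelium, 4 (26.7%) were higher and none lower in *Eeyore* mice, beside 1.29% of all tested genes called higher. The other 11 were not called, and the median log2 difference was 0.67. For *Reg3g*, a bactericidal lectin, the signals were 9853, 15070.0 and 15692 in *Eeyore*, 3845, 1408 and 901 in *Winnie* and 1439.7, 1397 and 941 in wild-type mice, a log2 difference of 2.97 ± 0.40 (SE; adjusted p = 0.00181). Its neighbour *Reg3b*, another lectin of this family, gave 33704, 36911 and 36459.6 in *Eeyore*, 19247, 7898 and 3959 in *Winnie* and 13076, 11893 and 9017 in wild-type mice, a difference of 2.08 ± 0.40 (adjusted p = 0.0162), and the other probe set gave 1.60 ± 0.32. In both genes the *Winnie* mice were spread widely, with mouse 1 nearest to the *Eeyore* level, and the *Reg3b* call was lost without *Eeyore* mouse 2, or *Winnie* mouse 2 (adjusted p up to 0.0652). *Pglyrp1*, a peptidoglycan recognition protein, was evenly separated, at 13413, 14397 and 17452 in *Eeyore*, 3937, 4777 and 3972 in *Winnie* and 4504, 3867 and 3472 in wild-type mice (3.56-fold, adjusted p = 1.09e-05). *Pigr*, the receptor that carries immunoglobulin A across the epithelium, was 1.43-fold higher in *Eeyore* mice (adjusted p = 0.00667), and both of its probe sets were called.

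Of all genes higher in *Eeyore* mice, *Lpo* had the lowest adjusted p. It encodes lactoperoxidase, an antimicrobial haem enzyme of mucosal secretions. Its signals were 15675, 15505 and 11663 in *Eeyore*, 984, 823 and 955 in *Winnie* and 789.8, 726 and 468 in wild-type mice. *Winnie* and wild-type mice were alike at the low level and the *Eeyore* mice stood 15.4-fold above *Winnie* (log2 difference 3.95 ± 0.19, SE; adjusted p = 2.16e-07). *Igsf23*, an immunoglobulin superfamily gene, had the same layout with 2461, 2538 and 2912 in *Eeyore*, 449, 554 and 461 in *Winnie* and 474, 349 and 251 in wild-type mice (5.41-fold, adjusted p = 4.59e-05), and 2 of its 3 probe sets were called with the other at 1.85 ± 0.45. *Lpo*, *Retnlb*, *Reg3g*, *Pglyrp1*, *Hsd17b13* and *Cyp2f2* have 1 tested probe set each. Sequence differences between the strains under their probes were not tested.

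**Figure D2:**
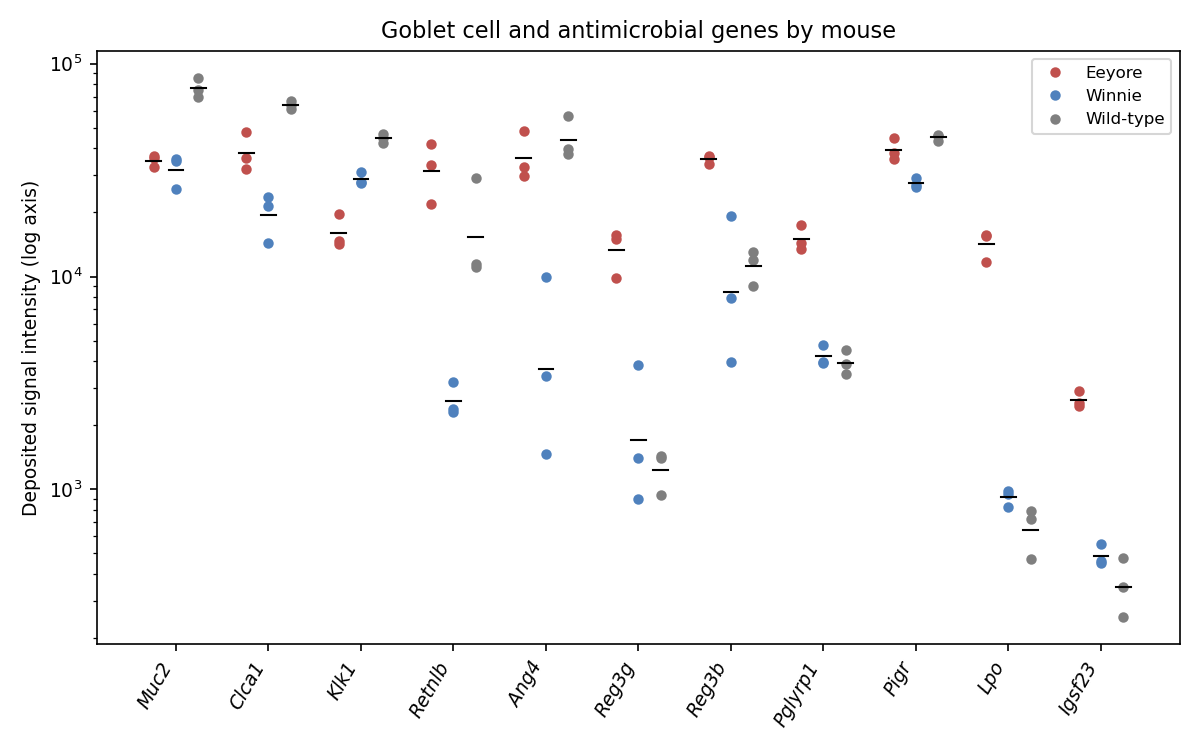
Deposited signal intensity on a log axis for *Muc2* and 10 goblet cell, antimicrobial and epithelial genes, with 1 point per mouse (3 per group) and a bar at each geometric mean. *Retnlb* and *Ang4* are low in *Winnie* mice only, *Reg3g*, *Pglyrp1*, *Lpo* and *Igsf23* are high in *Eeyore* mice only, and *Muc2* is alike in both mutants and below wild-type.

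Genes induced by type I interferon gave the most calls of any list, and their level in *Eeyore* mice was near that of wild-type while *Winnie* mice lay below both. Of 25 tested list members, 15 (60%) were higher and none lower in *Eeyore* mice, beside 1.29% of all tested genes called higher. The median log2 difference was 1.18 against -0.01 over all tested genes. The geometric mean signal over the list was 1349 to 2003 in *Eeyore*, 648 to 784 in *Winnie* and 1322 to 1399 in wild-type mice. In 4 of the 15 called genes the wild-type mean exceeded both mutants, and in the other 11 it lay between them. The count of higher members was 20 without *Eeyore* mouse 1 and 13 to 15 when any other single mouse was left out.

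*Ifit1*, whose product binds foreign RNA and blocks its translation, gave 3292, 3223 and 2314 in *Eeyore*, 583, 791 and 711 in *Winnie* and 3976, 3365 and 2782 in wild-type mice. *Eeyore* and wild-type mice overlapped and all *Winnie* mice lay below them, with a log2 difference between the mutants of 2.08 ± 0.18 (SE; adjusted p = 4.59e-05). Its relative *Ifit2* was at 1146, 2347 and 3400.3 in *Eeyore*, 407, 511 and 461 in *Winnie* and 1279, 1199 and 1103 in wild-type mice (4.57-fold, adjusted p = 0.00165). *Usp18*, which removes the ubiquitin-like Isg15 and restrains interferon signalling, was at 1255, 1571 and 1061 in *Eeyore*, 180.4, 373 and 322 in *Winnie* and 998, 763 and 1040.5 in wild-type mice (4.58-fold, adjusted p = 0.000562), and *Oas2*, a sensor of double-stranded RNA, at 589, 693 and 385 in *Eeyore*, 121, 211 and 111 in *Winnie* and 561, 520.2 and 541 in wild-type mice (3.8-fold, adjusted p = 0.0024). As for every called probe set, no *Eeyore* mouse overlapped a *Winnie* mouse in these genes. The *Eeyore* mice were themselves spread in *Ifit2*, lowest in mouse 1.

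The remaining called members were *Bst2* (log2 difference 1.82), *Oasl2* (1.82), *Xaf1* (1.48), *Rtp4* (1.48), *Rsad2* (1.39), *Mx1* (1.39), *Oasl1* (1.38), *Ifit3* (1.18), *Oas1a* (1.13), *Irf7* (1.12) and *Ifi35* (0.96), named as list members and not by size. *Irf7* is the factor that amplifies interferon production. The 10 members that were not called ran from 0.03 for the RNA sensor *Ifih1* to 1.46 for the nucleic acid sensor *Zbp1* (adjusted p = 0.0719). *Stat2* and *Irf9*, which carry the interferon signal to these genes, were at 0.83 (adjusted p = 0.083) and 0.31 (adjusted p = 0.358). *Ddx60* and *Dhx58*, interferon-inducible RNA helicases off the list and chosen after their values were seen, differed by 2.11 ± 0.19 and 1.92 ± 0.27.

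Promoter stretches of called members are shown because type I interferon acts on its targets through a short element in the promoter. Its letters, GAAA, any 2 bases and again GAAA, were searched on both strands in RefSeq promoter windows of build GRCm38.p6, from 250 bases before to 50 bases after the start of a gene. They stood in 5 of the 11 called list members that had a window, in 6 of the 8 uncalled ones, in 345 of 9275 tested genes (3.72%) and in 1079 of 27025 genes of the table (3.99%). Outside the list, 6 of 103 genes called higher in *Eeyore* mice (5.83%) and 2 of 118 called lower (1.69%) held them. The match is a description of these letters only, and a promoter with several matches was counted once. The stretches that follow are written 5′ to 3′ on the strand given, with 1 match in capitals on each line. The paired matches of *Ifit1* share part of their flanks, and those of *Bst2* and of *Oas1a* overlap each other.
Ifit1, chr19:34640775-34640804, minus strand: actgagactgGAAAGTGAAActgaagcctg
Ifit1, chr19:34640794-34640823, minus strand: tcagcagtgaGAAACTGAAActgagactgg
Ifit3, chr19:34583363-34583392, minus strand: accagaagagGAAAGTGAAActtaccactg
Ifit3, chr19:34583397-34583426, minus strand: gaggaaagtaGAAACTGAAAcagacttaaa
Rsad2, chr12:26456553-26456582, plus strand: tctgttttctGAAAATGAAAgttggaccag
Bst2, chr8:71537577-71537606, minus strand: ccaggaaaatGAAACTGAAAggctgcagtt
Bst2, chr8:71537583-71537612, minus strand: ggcattccagGAAAATGAAActgaaaggct
Oas1a, chr5:120907520-120907549, minus strand: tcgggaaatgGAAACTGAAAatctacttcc
Oas1a, chr5:120907526-120907555, minus strand: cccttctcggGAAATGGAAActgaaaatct

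The *Ifit1* pair lay 104 and 85 bases before the start, the *Ifit3* pair 156 and 122, the *Bst2* pair 124 and 130, the *Oas1a* pair 14 and 20, and the *Rsad2* match 120 bases before it. The matched letters all lie in the 5′ flank by the RefSeq start, while the flanking letters of the *Oas1a* match nearer to the start run past it. Among these genes the log2 difference ran from 1.13 in *Oas1a* to 2.08 in *Ifit1*, while *Ifih1*, which also holds the letters, was at 0.03.

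**Figure D3:**
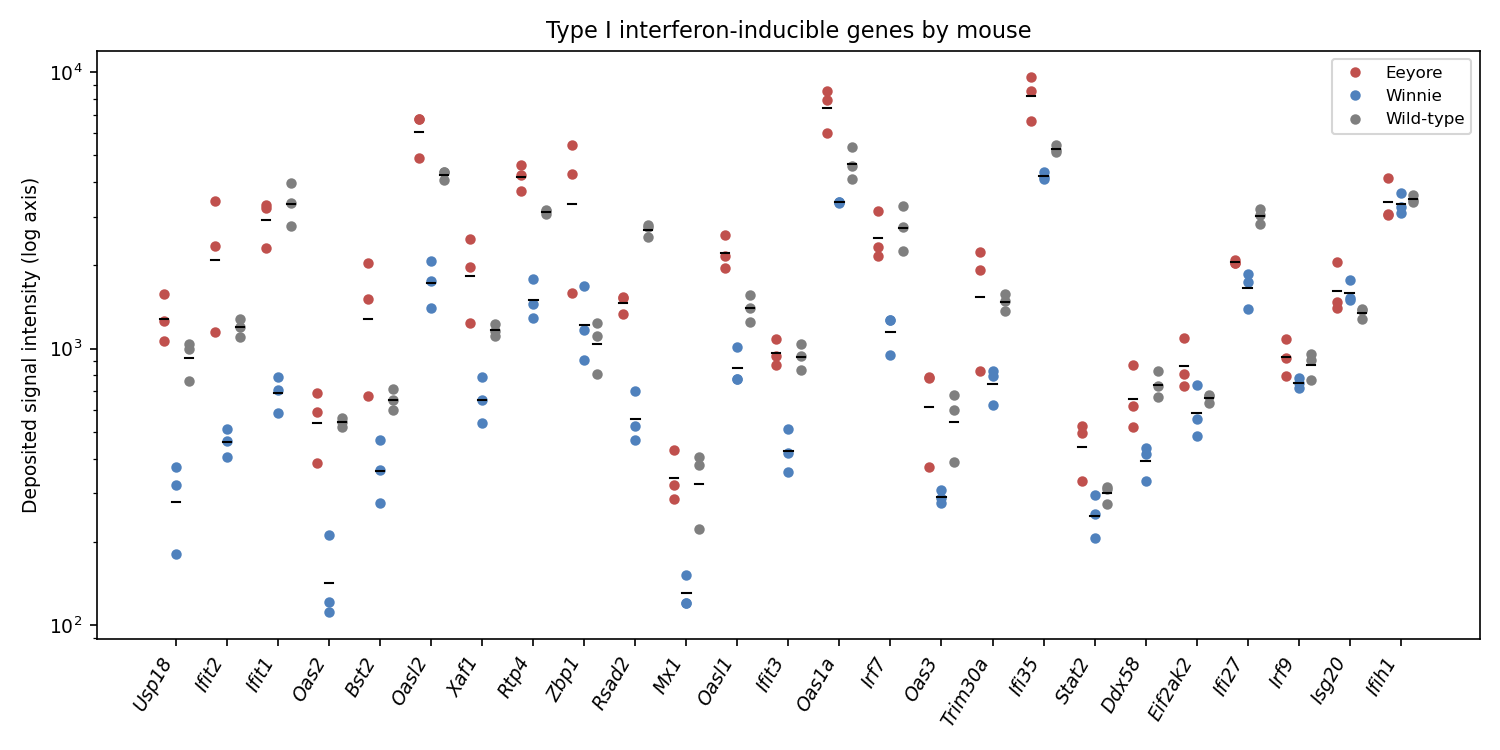
Deposited signal intensity on a log axis for the 25 tested type I interferon-inducible genes, ordered from the largest to the smallest log2 difference between the mutants, with 1 point per mouse (3 per group) and a bar at each geometric mean. In the 8 genes at the left the *Winnie* points lie below all *Eeyore* and wild-type points, and at the right, from *Irf9* to *Ifih1*, the groups run together.

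Genes of the interferon-gamma response did not pass the test between the strains, and varied most among the *Eeyore* mice. None of 17 GTPases and chemokines of this list was called (median log2 difference 0.42), and 1 of 13 genes of MHC class II presentation was, the lysosomal reductase *Ifi30* (0.46 ± 0.10, adjusted p = 0.0303), whose call was lost without *Eeyore* mice 2 or 3, or *Winnie* mice 1 or 3, or wild-type mouse 2 (adjusted p up to 0.131). In all 17 genes *Eeyore* mouse 1 was the lowest and *Eeyore* mouse 3 the highest of the strain. The geometric mean over the list was 786, 2254 and 3468 in *Eeyore* mice 1, 2 and 3, and 1216, 1612 and 1064 in *Winnie* mice. *Gbp2*, a guanylate-binding GTPase, was at 3478, 8507 and 20464 in *Eeyore*, 7250.2, 9552 and 5763 in *Winnie* and 2361, 2470.4 and 1706 in wild-type mice, so the *Eeyore* mice lay on both sides of *Winnie*. *Cd74*, the MHC class II invariant chain, was at 6538, 29689 and 35753 in *Eeyore* and 6468, 10553 and 7155 in *Winnie* mice (log2 difference 1.28 ± 0.48, adjusted p = 0.224).

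All 13 MHC class II genes were likewise lowest in *Eeyore* mouse 1, and their geometric mean was 609.8, 1872 and 2149.7 in *Eeyore* and 728, 944 and 787 in *Winnie* mice. Without *Eeyore* mouse 1, 8 of the 17 interferon-gamma genes, 8 of the 13 MHC class II genes and 8 of 21 macrophage and dendritic cell markers were called higher in *Eeyore* mice, where 0, 1 and 0 were called with it. No call was made in the GTPase or macrophage lists without *Eeyore* mouse 2 or 3. Over all tested probe sets, 770.0 (3.42%) had an SD above 1 on the log2 scale among *Eeyore* mice, 429 (1.91%) among *Winnie* and 403 (1.79%) among wild-type mice. Among 8754 genes with a mean signal of at least 200, the SD was above 1 in *Eeyore* and under 0.5 in *Winnie* mice for 34, and the reverse for 10.

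**Figure D4:**
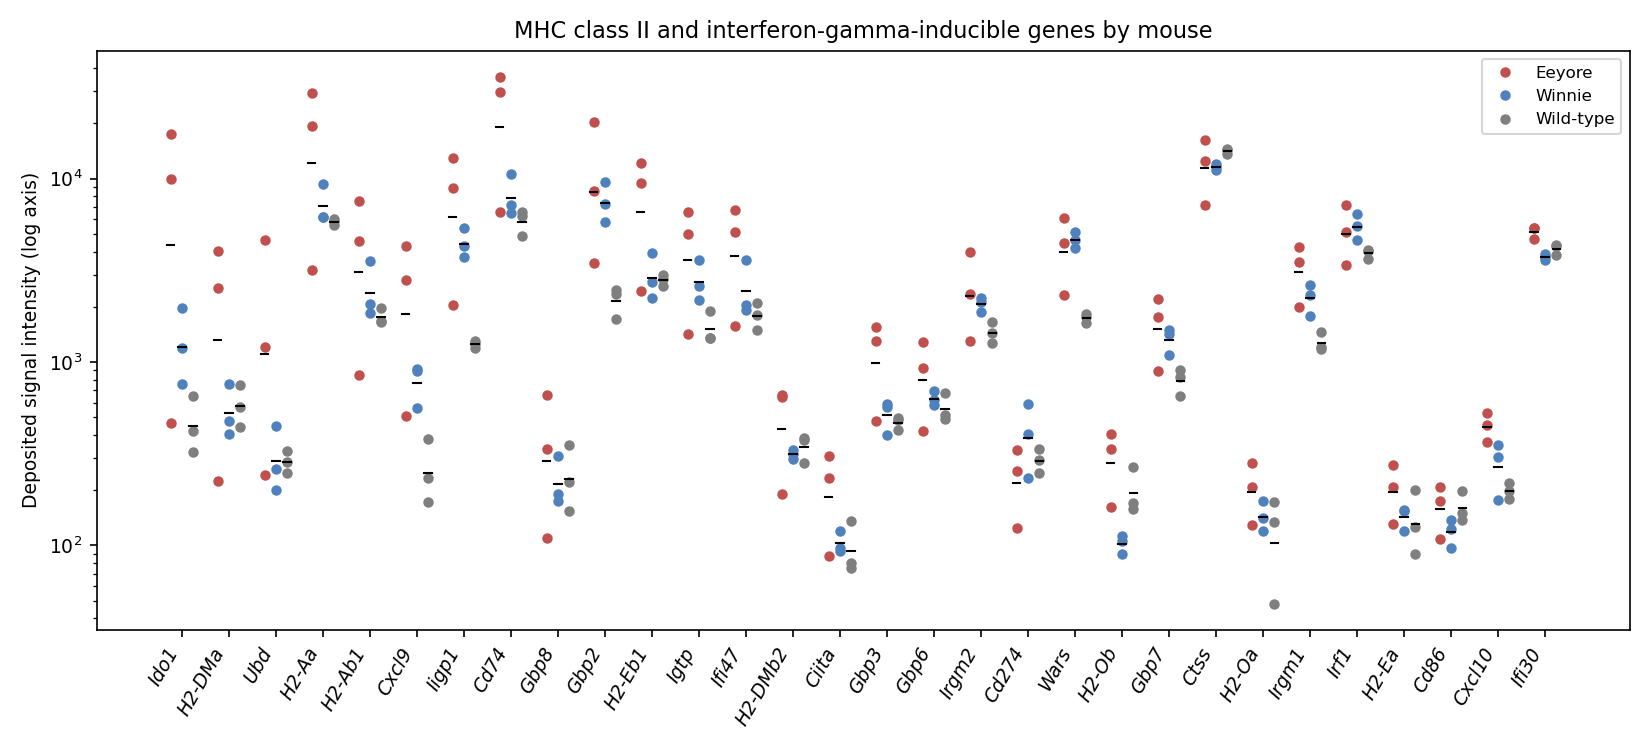
Deposited signal intensity on a log axis for the tested MHC class II and interferon-gamma-inducible genes, ordered by the SD of the log2 signal among *Eeyore* mice, with 1 point per mouse (3 per group) and a bar at each geometric mean. The *Eeyore* points spread over a wider range than the *Winnie* points in the genes at the left, and draw together towards *Ifi30* at the right.

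*Gzma* and *Gzmb*, which encode granzymes, the proteases of cytotoxic granules, were higher in *Eeyore* than in *Winnie* mice. The signal of *Gzma* was 495, 658 and 1004 in *Eeyore*, 141, 23.5 and 73.8 in *Winnie* and 729, 554 and 427 in wild-type mice, a log2 difference of 3.46 ± 0.51 (SE; adjusted p = 0.00317). *Gzmb* was at 255, 642 and 577 in *Eeyore*, 15.1, 113 and 52.7 in *Winnie* and 351, 299 and 234 in wild-type mice (3.34 ± 0.60, adjusted p = 0.01), and its call was lost without *Eeyore* mouse 2 (adjusted p up to 0.0574). *Eeyore* and wild-type mice shared a level in both genes and the *Winnie* mice were low. Of 30 T and NK cell markers listed, 26 had a probe set and only 10 passed the signal filter and were tested. *Gzma* and *Gzmb* were the 2 called among these 10, all of which had a difference above 0 (median 0.94). The filter used the mean over all arrays, and the *Winnie* means of *Gzma* (79.5) and *Gzmb* (60.4) lay under its level of 85.9. The direction of the untested markers was not examined, so the count does not describe the whole list. The geometric mean over the 10 tested was 175 to 317 in *Eeyore*, 89.4 to 125 in *Winnie* and 240.4 to 279 in wild-type mice. In whole tissue, fewer cells of a type and less RNA per cell cannot be told apart.

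Of 18 B and plasma cell markers, 1 was called (5.56%, beside 2.59% of all tested genes), *Derl3*, which is described with the ER genes. The geometric mean over that list was 591 to 967 in *Eeyore*, 462 to 549 in *Winnie* and 433 to 602 in wild-type mice. The SCID mutation, when homozygous, stops the assembly of antigen receptors, and the labels do not say which alleles the *Eeyore* mice kept. Their *Igha* signal, the heavy chain of immunoglobulin A, was 49449, 63852 and 73373 against 41836, 53367 and 45731 in *Winnie* mice, and was thus bright in every mouse. *Igk*, an immunoglobulin light chain gene with many related copies, was at 1221, 1862 and 2329 in *Eeyore*, 307, 507 and 229 in *Winnie* and 584, 665 and 859 in wild-type mice (5.29-fold, adjusted p = 0.000781), but only 1 of its 2 probe sets was called. *Cxcl13*, the chemokine that draws B cells into lymphoid follicles, was at 1489, 2241 and 2391 in *Eeyore*, 664, 828 and 496 in *Winnie* and 873, 697 and 569.6 in wild-type mice (3.08-fold, adjusted p = 0.00245), with both probe sets called. The other called members of the 24 chemokines and cytokines were *Ccl6* (0.57 ± 0.11, adjusted p = 0.0155) and *Il18* (-0.46 ± 0.09, adjusted p = 0.026), a cytokine of epithelial cells that was lower in *Eeyore* mice. The call of *Ccl6* was lost without *Eeyore* mouse 2, or *Winnie* mouse 3 (adjusted p up to 0.069), and that of *Il18* without *Eeyore* mice 2 or 3, or *Winnie* mice 1 or 3, or wild-type mouse 2 (adjusted p up to 0.11).

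MHC class I genes moved in both directions, 4 of 18 list members higher and 3 lower in *Eeyore* mice (38.9% called, beside 2.59% of all tested genes). For *H2-D1* the direction depended on the probe set. *B2m*, the light chain shared by class I molecules, was at 28967, 43891 and 51456 in *Eeyore*, 16677, 21534 and 18157 in *Winnie* and 29404, 34545 and 25335 in wild-type mice (1.11 ± 0.18, adjusted p = 0.00626), and both of its probe sets were called. The heavy chain *H2-D1* has 6 tested probe sets, 3 called lower, 2 called higher and 1 not called. The brightest gave 1003, 1687 and 1509 in *Eeyore*, 15692, 17995 and 17080.3 in *Winnie* and 18659, 18409 and 16398 in wild-type mice (-3.63 ± 0.16). Another gave 15894, 22456 and 27018 in *Eeyore*, 196, 87.7 and 49.0 in *Winnie* and 515, 272 and 316 in wild-type mice (7.81 ± 0.41, adjusted p = 5.15e-07). On either probe set *Winnie* and wild-type mice were on the same side and the *Eeyore* mice stood apart. The mean over all its probe sets was 0.54, with an adjusted p of 0.497.

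*H2-K1*, the other main heavy chain, had 3 of 4 probe sets lower in *Eeyore* mice, the brightest at 1566, 4993 and 5392 against 16171, 18335 and 16458 in *Winnie* and 26431, 25569 and 22644 in wild-type mice (-2.28 ± 0.34, adjusted p = 0.00324). *H2-Q2* was lower by at least 19.3-fold with signals under 41.1 raised to that level, at 27.4, 57.1 and 35.6 in *Eeyore*, 1166, 746 and 794 in *Winnie* and 1717, 2286 and 1990.4 in wild-type mice, whereas *H2-T18* was 9.33-fold higher (645, 1063 and 1042 against 144, 85.3 and 71.7, wild-type 310.3, 276 and 329.8). *H2-Q10* and *H2-T3* were both higher by 2.04 on the log2 scale. These are near-identical copies of one family, 5 of the 6 *H2-D1* and all 4 *H2-K1* probe sets carry the platform's mark for probes shared between transcripts, and C57BL/6 and NOD mice carry different MHC haplotypes. Transcript level and allele sequence under the probes cannot be told apart for them. *Psmb9*, a subunit of the immunoproteasome in the same region of chromosome 17, was at 1804, 8611 and 9993 in *Eeyore* and 1145, 1537 and 1215 in *Winnie* mice (2.06 ± 0.48, adjusted p = 0.0444), with *Eeyore* mouse 1 near the *Winnie* mice, and its call was lost without *Eeyore* mice 2 or 3, or *Winnie* mice 1, 2 or 3, or wild-type mice 1, 2 or 3 (adjusted p up to 0.179).

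**Figure D5:**
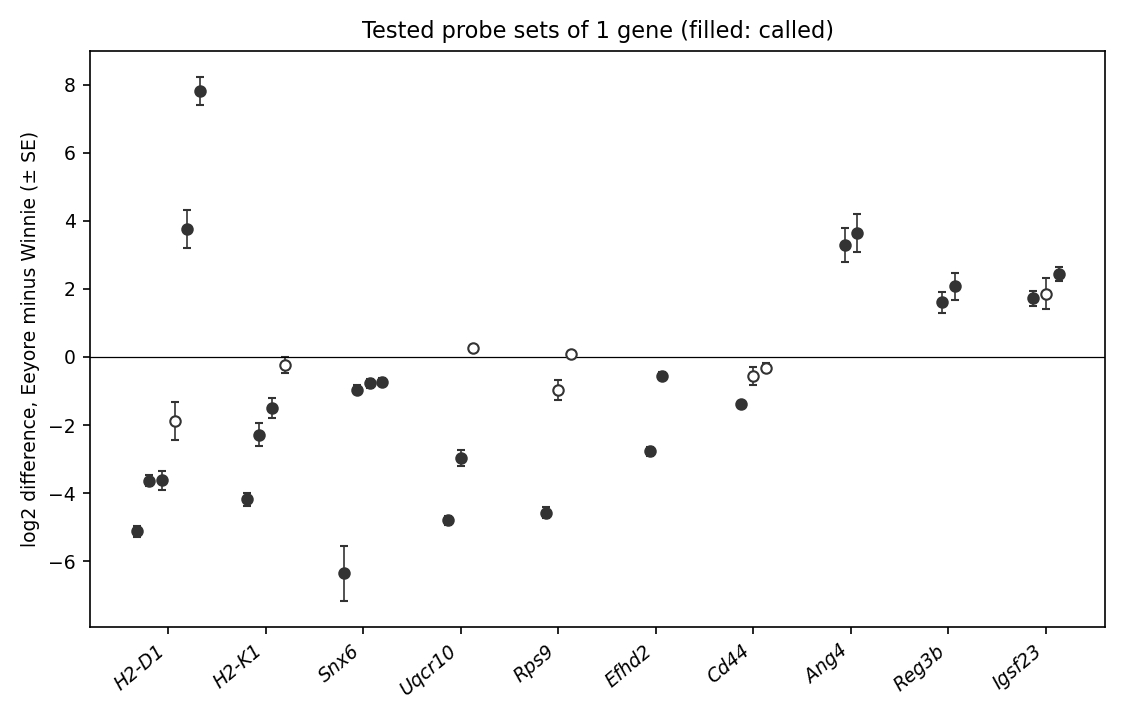
Each point is 1 tested probe set, grouped by gene, with the log2 difference of *Eeyore* minus *Winnie* and its SE on the y axis; filled points passed an adjusted p of 0.05. The probe sets of *H2-D1* lie on both sides of 0, 1 probe set each of *Snx6* and *Rps9* and 2 of *Uqcr10* lie far below the rest of their gene, and those of *Ang4*, *Reg3b* and *Igsf23* lie together.

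Several of the deepest falls likewise differed in size between the probe sets of a gene. *Snx6*, a sorting nexin, had all 4 probe sets lower in *Eeyore* mice, 3 of them with a difference of -0.74, -0.78 and -0.96 and the other with -6.35 on the log2 scale. For *Rps9*, a protein of the small ribosomal subunit, 1 probe set gave 407, 576 and 555 in *Eeyore* and 11162, 11448 and 13936 in *Winnie* mice, and the brightest gave 21880.2, 21083 and 21451 and 18751, 21081 and 20309 with a difference of 0.10 ± 0.08. *Uqcr10*, a subunit of respiratory complex III, had probe sets at -4.80 and -2.97 and its brightest at 0.27 ± 0.08, which was not called. *Efhd2*, a calcium-binding protein, was lower at both of its probe sets, with differences of -2.77 and -0.56. *Snx6*, *Rps9* and *Uqcr10* were picked after their values were seen. Of 232 genes with a called probe set and more than 1 tested, 27 had all of them called in the same direction, 204 had at least 1 that was not called and 2 had calls in both directions, *H2-D1* being counted under both. Among the 30 of these genes with a call over 4-fold, the numbers were 6, 24 and 1.

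*Nxpe4*, *St3gal4* and *Tmem87a*, each with 1 tested probe set, had the largest differences of all called genes, and no other tested probe set bears on them. *Nxpe4*, a gene of the neurexophilin family, was at 45.1, 3.21 and 28.9 in *Eeyore*, 2680.4, 3141 and 3693 in *Winnie* and 2246, 2429 and 3142 in wild-type mice, lower by at least 74.1-fold with signals under 41.1 raised to that level. *St3gal4*, a sialyltransferase that caps glycans, was at 56.4, 63.4 and 68.3 in *Eeyore*, 2593, 3207 and 2853 in *Winnie* and 1476, 1457 and 2142 in wild-type mice (46-fold lower, adjusted p = 6.16e-09). Both were at wild-type brightness or above it in *Winnie* mice and dim in every *Eeyore* mouse. *Tmem87a*, a Golgi membrane protein, showed the reverse with 1459, 1235 and 1369 in *Eeyore*, 6.45, 20.8 and 64.6 in *Winnie* and 107, 65.6 and 11.9 in wild-type mice, at least 28.3-fold higher in *Eeyore* mice. *Nxpe4* and *St3gal4* both lie on chromosome 9. Over all called probe sets, 43 differed by more than 8-fold, 23 lower and 20 higher in *Eeyore* mice.

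A few folding enzymes of the ER were higher in *Eeyore* mice. Of 25 ER chaperones and folding enzymes, 5 were higher and 1 lower (24% called, beside 2.59% of all tested genes), with a median log2 difference of 0.30. The wild-type mean lay below both mutants for all 6, and for 19 of the 25 tested. At probe sets other than the brightest, the ER chaperones *Calr* (2 of 3 tested), *Hsp90b1* (1 of 2) and *Hyou1* (1 of 2) were also called higher. *Pdia3*, a disulphide isomerase that folds glycoproteins, was at 10443, 12104 and 12508 in *Eeyore*, 7932, 7578 and 7492 in *Winnie* and 6154, 5904 and 5962 in wild-type mice (1.52-fold, adjusted p = 0.00276). *Creld2*, an ER stress-inducible chaperone, was at 4038, 4505 and 3739.9 in *Eeyore*, 2716, 2152 and 2176 in *Winnie* and 1126, 1389.9 and 1144 in wild-type mice (1.75-fold, adjusted p = 0.00621). At these probe sets of both genes the groups were stepped, with wild-type lowest, *Winnie* next and *Eeyore* highest, and none overlapped. The other probe set of *Pdia3* was at 0.16 and was not called. The call of *Pdia3* was lost without an intensity trend and with the mean over its probe sets. *Pdia4* (1.42), *Sdf2l1* (0.83) and *Ppib* (0.39) were also higher, and *Ero1a*, the oxidase that drives disulphide formation, was lower (-0.53). For *Ppib* 1 of 2 tested probe sets was called, and for *Ero1a* 1 of 3. The call of *Pdia4* was lost without *Eeyore* mice 2 or 3, or *Winnie* mice 2 or 3 (adjusted p up to 0.101), and that of *Sdf2l1* without *Eeyore* mice 1, 2 or 3, or *Winnie* mice 2 or 3, or wild-type mice 1, 2 or 3 (adjusted p up to 0.195). *Derl3*, of the ER degradation pathway and also a plasma cell marker, was the only call among 29 genes of the unfolded protein response, translocation and ER degradation, at 802, 836 and 702 in *Eeyore* and 447, 223 and 284 in *Winnie* mice (2.55-fold, adjusted p = 0.0142), lost without *Eeyore* mouse 2, or *Winnie* mouse 3 (adjusted p up to 0.0723). The count of higher chaperones ranged from 2 to 6 when 1 mouse was left out, lowest without *Eeyore* mouse 2 or *Winnie* mouse 2 or 3, and was 1 without an intensity trend and 3 after median centring.

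Other genes with large rises in *Eeyore* mice came from varied families. *Ctrc*, chymotrypsin C, a digestive protease, was at 2026, 985 and 975 in *Eeyore*, 31.3, 50.7 and 98.9 in *Winnie* and 255, 241 and 113 in wild-type mice (at least 21.1-fold with signals under 41.1 raised to that level, adjusted p = 0.000149). None of 8 pancreas and lymph node markers was called. All 8 had a difference above 0 (median 2.41), and 5 did not overlap, beside 2392 of 11453 tested genes (20.9%). Their geometric mean ran over 1302 to 2680.5 in *Eeyore*, 82.2 to 1173 in *Winnie* and 197 to 12086 in wild-type mice. The elastase *Cela2a* was at 4682, 1877 and 2454 in *Eeyore*, 575, 1741 and 135 in *Winnie* and 32755, 31792 and 227 in wild-type mice. *Ctrc* was thus highest in *Eeyore* mice and *Cela2a* in wild-type mice 1 and 2, and the part of pancreatic tissue in the *Ctrc* values was not tested. *Hsd17b13*, a lipid droplet protein, was at 3206, 1333 and 2179.6 in *Eeyore*, 233, 130.2 and 139.8 in *Winnie* and 326, 322 and 241 in wild-type mice (13-fold, adjusted p = 3.92e-05). *Erdr1* was at 2154, 1200.4 and 2423 in *Eeyore*, 237, 64.7 and 109 in *Winnie* and 6175, 5392 and 6001 in wild-type mice (15.5-fold, adjusted p = 0.000122). *Erdr1* was thus below wild-type in both mutants and lowest in *Winnie*, and *Eeyore* mice stood above both other groups in *Hsd17b13* and *Ctrc*.

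*Myl7*, the atrial myosin light chain, was 9.22-fold higher in *Eeyore* mice, *Abhd1* 5.96-fold, *Rnf225* 5.67-fold and the phosphoinositide phosphatase *Inpp4b* at least 5.17-fold. The call of *Myl7* was lost without *Eeyore* mouse 2 (adjusted p up to 0.0503) and that of *Inpp4b* without *Eeyore* mice 2 or 3 (adjusted p up to 0.0574). *Afm*, the vitamin E-binding plasma protein afamin (651, 116 and 335 against 48.0, 22.7 and 46.3), *Pla2g4c*, a phospholipase (1126, 327 and 283 against 57.7, 28.6 and 5.37), and the tetraspanin *Tspan32* (131, 187 and 266 against 18.7, 82.2 and 22.7) were dim in *Winnie* mice. The call of *Afm* was lost without *Eeyore* mouse 3, or *Winnie* mice 2 or 3 (adjusted p up to 0.0719). That of *Pla2g4c* was lost without *Eeyore* mice 1, 2 or 3, or *Winnie* mice 2 or 3, or wild-type mouse 2 (adjusted p up to 0.152), and that of *Tspan32* without *Eeyore* mice 2 or 3, or *Winnie* mice 1 or 3, or wild-type mouse 2 (adjusted p up to 0.13), and the other probe set of each, at 1.96 and 0.11, was not called.

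Among genes that were lower in *Eeyore* mice, those of tissue remodelling differed in their place against wild-type. *Mmp3*, the matrix metalloproteinase stromelysin, was at 110.5, 36.4 and 46.8 in *Eeyore*, 239.5, 776 and 580.5 in *Winnie* and 101, 70.3 and 53.2 in wild-type mice. *Winnie* mice were thus above all others (-3.05 ± 0.52, SE, adjusted p = 0.0073), and the call was lost without *Winnie* mouse 3 (adjusted p up to 0.053). The other 9 tested genes of its list were not called. *Cd44*, the hyaluronan receptor of crypt base cells, was at 877, 860.1 and 834 in *Eeyore*, 2380.2, 2421 and 1980.0 in *Winnie* and 2889, 3008 and 2728 in wild-type mice, and here *Eeyore* mice were the group farthest below wild-type (-1.39 ± 0.11, adjusted p = 3.67e-05). It was the 1 call of 12 stem cell and crypt base genes. Its other 2 probe sets differed by -0.32 and -0.55 and were not called.

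*Ifi27l2b* and *Ifi27l2a*, neighbouring genes on chromosome 12 of an interferon-inducible family, moved in opposite directions. *Ifi27l2b* was at 330.2, 387 and 329 in *Eeyore*, 2072, 2793 and 2586 in *Winnie* and 3335, 3049 and 3147 in wild-type mice (-2.83 ± 0.14, SE; adjusted p = 2.16e-07). *Ifi27l2a*, picked after its values were seen, was at 2595, 11948 and 6843 in *Eeyore*, 1873, 1496 and 1784 in *Winnie* and 3328, 3081 and 2438 in wild-type mice (1.80 ± 0.39, adjusted p = 0.0339). The pair are close in sequence, and binding of one transcript to the probes of the other was not tested.

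Other genes among the largest falls had varied roles. *Pdk1*, a kinase that holds back pyruvate dehydrogenase, was at 568, 366 and 474 in *Eeyore*, 1649, 2068 and 1781 in *Winnie* and 962, 1268 and 1385 in wild-type mice (3.95-fold lower, adjusted p = 0.000107), with 2 of 3 probe sets called lower and the other at 0.32 and not called. *Cyp2f2*, a cytochrome P450, was at 65.0, 64.8 and 53.5 in *Eeyore*, 404, 298 and 356 in *Winnie* and 764, 1005 and 687 in wild-type mice (5.75-fold lower, adjusted p = 5.96e-05). Both were clear of overlap, with *Eeyore* mice the dimmest group. *Tm9sf4* was 4.83-fold and the mono-ADP-ribosylhydrolase *Macrod2* 3.75-fold lower, each with its other probe set not called. With dimmer signals set to 41.1, the peptidase *Naaladl1* was at least 4.73-fold and *Isoc2b* at least 5.65-fold lower, the latter lost without *Winnie* mice 1 or 3 (adjusted p up to 0.0855). *Prune2* was at least 5.97-fold lower on the same footing (51.9, 10.6 and 74.8 against 315, 450.2 and 239), whereas its other probe set went the opposite way at 263, 297 and 231 in *Eeyore* and 107, 157 and 117 in *Winnie* mice and was not called. *Nos1ap*, an adaptor of neuronal nitric oxide synthase, and the antisense gene *Tnfsf13os* were dim in *Eeyore* mice and at least 4.36-fold and 7.6-fold lower in the same way. A further 3 named falls were dim in *Eeyore* mice, *Sbsn* (61.2, 33.5 and 8.38 against 229, 282 and 104), the lysosomal protease *Ctsf* (82.2, 37.3 and 19.1 against 244, 123 and 208) and the growth factor *Pdgfd* (56.8, 15.7 and 44.5 against 162, 117 and 131). The call of *Sbsn* was lost without *Eeyore* mouse 2, or *Winnie* mice 1 or 2, or wild-type mice 1, 2 or 3 (adjusted p up to 0.124). That of *Ctsf* was lost without *Eeyore* mice 2 or 3, or *Winnie* mice 1, 2 or 3, or wild-type mice 1, 2 or 3 (adjusted p up to 0.179), and that of *Pdgfd* without *Eeyore* mice 2 or 3, or *Winnie* mice 1, 2 or 3, or wild-type mice 1, 2 or 3 (adjusted p up to 0.147).

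Of 18 smooth muscle contractile genes, 4 (22.2%) were lower and none higher in *Eeyore* than in *Winnie* mice, beside 1.3% of all tested genes called lower. The other 14 were not called (median log2 difference over the list -0.40). The geometric mean over the list was 2359 to 2887 in *Eeyore*, 3204 to 3555 in *Winnie* and 7142 to 7469 in wild-type mice. *Myh11*, smooth muscle myosin, was at 3334, 3379 and 2974 in *Eeyore*, 5174, 5091 and 4261 in *Winnie* and 13004, 13338 and 11713 in wild-type mice (1.5-fold lower, adjusted p = 0.01). The others called were *Myl9* (-0.38), *Tagln* (-0.34) and *Synpo2* (-0.67). The call of *Myl9* was lost without *Eeyore* mouse 2 (adjusted p up to 0.0574) and that of *Tagln* without *Eeyore* mice 1 or 2, or *Winnie* mice 2 or 3, or wild-type mice 1 or 2 (adjusted p up to 0.158). That of *Synpo2* was lost without *Eeyore* mice 2 or 3, or *Winnie* mice 1, 2 or 3, or wild-type mice 1, 2 or 3 (adjusted p up to 0.136), and over its 4 probe sets *Synpo2* averaged 0.23 (adjusted p = 0.585). The count of lower genes ran from 1 without *Eeyore* mouse 2 to 8 without *Eeyore* mouse 1, was 2 or 3 without any other mouse, 7 after median centring and 0 without an intensity trend. *Fabp4*, a fatty acid carrier of fat cells, was at 457, 1122 and 880.1 in *Eeyore*, 3726, 1691 and 2324 in *Winnie* and 5129, 5442 and 5137 in wild-type mice (3.19-fold lower, adjusted p = 0.0124), the 1 call of 10 fat genes, whose geometric mean was 113 to 402, 420.0 to 947 and 1156 to 1459.8 in the same order. The share of muscle wall or mesenteric fat in each sample was not measured, and its part in these values was not tested.

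Chromogranin genes were lower in *Eeyore* mice. *Chga* and *Chgb* encode chromogranins of hormone granules and were the 2 called of 19 enteroendocrine and tuft genes. *Chga* was at 321, 434 and 314 in *Eeyore*, 923, 652 and 595 in *Winnie* and 878, 615 and 674 in wild-type mice (2.01-fold lower, adjusted p = 0.0287), and *Chgb* at 2786, 3079 and 2215 in *Eeyore*, 5779.8, 3888 and 3856 in *Winnie* and 4727, 4768 and 4124 in wild-type mice (1.66-fold lower, adjusted p = 0.0409). *Winnie* mice overlapped wild-type in both. The call of *Chga* was lost without *Eeyore* mice 1 or 3, or *Winnie* mouse 1 (adjusted p up to 0.109) and that of *Chgb* without *Eeyore* mice 2 or 3, or *Winnie* mice 1 or 3, or wild-type mice 1 or 2 (adjusted p up to 0.129).

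Glycosylation and lipid genes held single differences in both directions. *Gcnt1*, which builds branched core structures on mucin glycans, was at 470.1, 453 and 386 in *Eeyore*, 855, 1135 and 997 in *Winnie* and 1418, 1439 and 1346 in wild-type mice (2.27-fold lower, adjusted p = 0.000829), although its other probe set was at 0.25 and not called. *St6gal1*, a sialyltransferase, was 1.66-fold higher (2692, 2047 and 2565 against 1523, 1267 and 1614, adjusted p = 0.0123), with its other probe set not called. With *St3gal4* these were the 3 calls among 25 other mucins and mucin glycosylation genes. Of 22 genes of cholesterol and fatty acid synthesis, 3 were higher, namely *Insig1* at 2585, 1958 and 2338 against 1203, 1046 and 1191 (1.99-fold, adjusted p = 0.00241), *Fdps* (0.64) and *Acly* (0.51), and *Sc5d* was lower (-0.65, with its other probe sets at -0.42 and 0.37 and not called). The call of *Fdps* was lost without *Eeyore* mice 2 or 3, or *Winnie* mice 1 or 3 (adjusted p up to 0.136), that of *Acly* without *Eeyore* mice 2 or 3, or *Winnie* mice 1 or 3, or wild-type mice 1, 2 or 3 (adjusted p up to 0.176) and that of *Sc5d* without *Eeyore* mouse 2 (adjusted p up to 0.0805). *Adh1*, an alcohol dehydrogenase, was 1.7-fold higher and the efflux pump *Abcb1a* 1.57-fold lower, and with *Cyp2f2* these were the calls among 31 xenobiotic and antioxidant enzymes.

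Many lists gave no call between the mutants. Over all tested genes 2.59% were called, and at that share a list of this length can hold none. None of 35 cell cycle genes, 26 regulators of apoptosis and necroptosis, 29 absorptive colonocyte genes, 14 genes of proximal and distal position, 19 of lipid oxidation and ketogenesis, 16 clock genes, 18 growth factor and wound repair genes, 23 fibroblast and matrix genes, 13 endothelial genes, 17 enteric neuron and glia genes, 21 macrophage and dendritic cell markers or 5 neutrophil and mast cell markers passed the test. *Mki67*, a marker of dividing cells, was at 4546, 4862 and 4177 in *Eeyore* and 4696, 5938 and 6693 in *Winnie* mice (-0.34 ± 0.12, SE; adjusted p = 0.219), both above wild-type (3766, 3905 and 3613). The inflammatory cytokine *Il1b* was at 886, 1298 and 1430.1 against 570.0, 1696 and 344 (0.77 ± 0.45, adjusted p = 0.459), and was called higher without *Winnie* mouse 2 (1.41, adjusted p = 0.037). *Lyz2*, a macrophage lysozyme, was at 4631, 7859 and 10788 against 4117, 4931 and 4762 (0.67 ± 0.23, adjusted p = 0.18), lowest in *Eeyore* mouse 1, and was called without that mouse. Of 19 Clca and barrier genes, *Clca1* alone was called, and no red cell gene reached the level for testing.

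Further genes named from these lists had log2 differences between -0.64 and 0.46. *Pcna*, the sliding clamp of DNA replication, was at -0.17 ± 0.11 (SE), *Col3a1*, a fibrillar collagen, at 0.07 ± 0.09, and *Dcn*, the matrix proteoglycan decorin, at -0.09 ± 0.13. *Atp1b1*, a subunit of the sodium pump, was at 0.26 ± 0.10, the fatty acid oxidation enzymes *Hadh* and *Acadl* at 0.21 ± 0.08 and 0.21 ± 0.10, and the wound repair genes *Anxa1* and *Erbb3* at -0.09 ± 0.16 and -0.17 ± 0.11. *Cdkn1a*, a cell cycle inhibitor, and *Mcl1*, which holds back apoptosis, were at -0.05 ± 0.11 and -0.18 ± 0.13. Nearest to a call were *Vip*, a neuropeptide of enteric neurons, at 1333, 1707 and 1203 in *Eeyore* against 2332, 1766 and 2489.8 in *Winnie* mice (-0.64 ± 0.16, adjusted p = 0.0632, called without *Eeyore* mouse 2 or *Winnie* mouse 2 and after median centring), and the circadian factor *Clock* (-0.46 ± 0.12, adjusted p = 0.0715). The clock repressor *Nr1d2* was at 0.46 ± 0.17, called without *Eeyore* mouse 1 (0.65, adjusted p = 0.0302), and *Gsdmc2*, a gasdermin of the colon epithelium, at 0.40 ± 0.25.

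Called genes were spread over the chromosomes at unequal shares, given as a description beside the 2.59% of all tested genes. The share was highest on chromosome 12 (19 of 397 genes, 4.79%), chromosome 19 (17 of 423, 4.02%) and chromosome 5 (28 of 734, 3.81%), and lowest on chromosome 10 (4 of 537, 0.745%) apart from the Y chromosome, where 0 of 2 genes were called. Chromosome 7, which carries *Muc2*, had 27 of 859 (3.14%). Of 561 windows of 20 neighbouring tested genes, 360 held no call and 2 held at least 4. One, on chromosome 12 from *Gm9222* to *Adi1*, held 5 (*Iah1*, *Id2*, *Rsad2*, *Cmpk2* and *Adi1*), and the other, on chromosome 5 from *Mmab* to *Dynll1*, held 4 (*1500011B03Rik*, *Oasl2*, *Oasl1* and *Unc119b*). In both windows interferon-inducible genes that lie side by side, *Rsad2* with *Cmpk2* and *Oasl2* with *Oasl1*, gave 2 of the calls.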

How the data were processed

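Total RNA of the distal and of the proximal large intestine was extracted apart (RNA integrity above 8), and equal amounts of the regions were pooled for each mouse. The pools were labelled and hybridised to Affymetrix Mouse 430 2.0 arrays, 1 per mouse. The deposited signal intensities had been summarised and scaled by the authors to a 2% trimmed mean of 500, which makes each value relative to its own array. Of 45037 non-control probe sets, the 22519 with a mean log2 signal in the upper 50% (at least 6.43, a signal of 85.9) were tested on log2 intensities with limma 3.58.1 in R 4.3.3, with 1 mean per group over all 9 arrays and an intensity trend, and Benjamini-Hochberg adjustment over all tested probe sets. A call is an adjusted p under 0.05. A log2 difference is *Eeyore* minus *Winnie*, followed by its standard error. Its p-value sets it against the spread among mice of a group, estimated over all 9 arrays with the intensity trend. An exact permutation test of 3 against 3 mice could not go below 0.1. Each gene was taken at its brightest tested probe set paired with that symbol alone by the platform annotation, which held for 34945 probe sets, while 932 had several symbols and 9160 none. Where a signal was under 41.1, the highest lower quartile of any array, a fold was written as at least N-fold with signals raised to that level. The number of arrays limits the precision.

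Genes were named by rule: *Muc2*, the 20 largest differences each way among called genes without overlap and with a mean of at least 100 in the brighter strain, and up to 4 called or else the 2 brightest members of each of 35 lists. Other genes named in the text were chosen after their values were seen. The comparison, the lists and the rule were chosen with earlier results of these data known. Simulated arrays with known changes were used to check the fit. The alternatives were quantile normalization, median centring, other filters, an offset of 32, no trend, a robust variance model, only the mutant arrays, a replicate block, the mean over probe sets and leaving out each mouse. The platform annotation and RefSeq promoters served for names and sequences.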

Additional observations from a re-analysis of the deposited data

How the results depend on the processing

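Of 519 probe sets called, 240 higher and 279 lower in *Eeyore* mice, 275 remained with a difference of at least 2-fold (131 higher and 144 lower). Without an intensity trend 282 were called (136 and 146), of which 261 were among the 519, and with only the mutant arrays 358 (185 and 173). Leaving out 1 mouse gave 297 to 858 calls, 146 to 428 of them higher and 143 to 430 lower, highest without *Eeyore* mouse 1 and lowest in all without *Winnie* mouse 3. The other settings gave 468 to 564 calls. Mice of the same number in *Eeyore* and *Winnie* did not deviate together (correlations of 0.04, 0.01 and 0.01 over probe sets). For *Eeyore* and wild-type mice the same-number correlations were -0.01, -0.002 and 0.02. Between *Winnie* and wild-type mice they were 0.07, 0.08 and 0.16, against -0.095 to 0.02 for different numbers. Whether the mouse numbers mark samples handled together was not tested. The replicate block gave 524 calls, 253 higher and 271 lower, 459 of them shared. Of 75 named called genes, 33 kept their call and direction under every alternative that could be run and 42 lost the call under at least 1, and 5 of the 32 named genes without a call gained one. The direction turned for 2 genes with the mean over all their probe sets, *H2-D1* (0.54, adjusted p = 0.497 with limma) and *Synpo2* (0.23, adjusted p = 0.585). The causes of these changes were not tested. Signals under 41.1 limit the folds of dim genes to bounds.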
